A study of Homo sapiens with 19 samples.

Results

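The regions described here are alternative 3' splice sites, pairs of acceptors in 1 gene that lie more than 3 nt apart and are joined to the same upstream exon. They were taken from the splicing tables that the authors deposited for RBFOX2 knockdown in human embryonic stem cells, from every row of that event type, and merged by gene and coordinates. Of 2400 acceptor pairs in the 9 tables, 1834 were more than 3 nt apart, in 1385 genes, and the other 566 were 1 to 3 nt apart. No difference or p-value took part in the choice. In each pair the upstream acceptor gives the longer exon, the downstream acceptor gives the shorter one, and the bases between them, called the stretch below, are exon or intron depending on the choice. Where a gene holds several pairs they are numbered as events (CELF1 event 2).

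The series measured RNA by sequencing of ribosomal-RNA-depleted libraries from HUES66, a human embryonic stem cell line, and from A375 (melanoma) and HEK293 (embryonic kidney) cells. Of the HUES66 libraries, 14 had 1 µg/ml doxycycline for 24, 48 or 96 hr: 3 Control libraries labelled WT (24hr replicate 2, 48hr, 96hr), 3 with RBFOX2 total knockdown (24hr replicate 1, 48hr, 96hr; Total KD), and 4 each with knockdown of the RBFOX2 isoforms that the labels call N-short and N-long (24hr replicates 1 and 2, 48hr, 96hr; N-short KD, N-long KD). The controls thus had doxycycline too, and the 24hr replicate 1 set has no library labelled as its control. The other 5 libraries, 1 of each kind and without a labelled treatment, were wild-type HUES66, wild-type HEK293, and total, nuclear and cytoplasmic RNA of A375. No label says that this wild-type HUES66 library went without doxycycline; its library name has the same prefix as the 24hr replicate 1 libraries and the word that marks the controls, so it may be their control. The series title names the RNA-targeting nuclease Cas13d as the knockdown tool, and the labels do not say whether the cells were a clone. Because no label names separate cultures, p-values here measure the spread between these libraries, which may be technical, and since each time point after 24hr is 1 set of libraries, time and preparation cannot be told apart.

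A 3' splice site is read as a branch point, a run of pyrimidines and an AG, which SF1, the U2AF heterodimer and the U2 snRNP recognise before the second step of splicing cuts after the AG. Where a second AG lies within reach, the spliceosome can join the donor to either of them, and the product gains or loses the bases between. RBFOX2 is an RNA-binding protein that reads GCATG in and around exons and is known to shift their splicing in stem cells, muscle and brain.

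The stretches below show the range of these pairs. Lower case marks 15 exon bases before and 15 after, capitals mark the stretch, which the upstream acceptor keeps and the downstream acceptor removes together with the intron, and the percentage quoted afterwards is the share of junction reads that used the upstream acceptor, pooled over the 14 treated libraries. Sequences were read from GENCODE 29 transcripts and are written 5′ to 3′ on the gene's strand. The first 4 are short stretches that end in a pyrimidine-rich run and AG, that is, they have the letters of a second acceptor, and the last 4 belong to pairs whose use differed between library sets.
RBM39: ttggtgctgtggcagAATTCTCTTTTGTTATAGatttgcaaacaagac
EHMT1: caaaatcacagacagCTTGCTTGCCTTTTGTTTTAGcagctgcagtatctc
HNRNPUL1 event 1: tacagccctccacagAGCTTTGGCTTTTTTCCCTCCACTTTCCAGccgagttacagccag
CELF1 event 2: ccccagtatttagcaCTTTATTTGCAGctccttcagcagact
TIAL1: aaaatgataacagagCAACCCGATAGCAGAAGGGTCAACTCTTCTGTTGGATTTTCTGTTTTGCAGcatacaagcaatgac
CLINT1: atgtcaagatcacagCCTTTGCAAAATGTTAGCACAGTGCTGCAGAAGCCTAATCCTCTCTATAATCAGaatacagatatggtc
SETD5: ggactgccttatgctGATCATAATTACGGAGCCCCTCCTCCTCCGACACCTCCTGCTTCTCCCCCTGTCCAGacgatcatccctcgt
STK36: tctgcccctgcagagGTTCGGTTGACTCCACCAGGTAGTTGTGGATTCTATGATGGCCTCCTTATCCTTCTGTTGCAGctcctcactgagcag
On hg38 the RBM39 stretch lies at chr20:35709257-35709274 (minus strand), that of EHMT1 at chr9:137743371-137743391 (plus), HNRNPUL1 at chr19:41305646-41305675 (plus) and CELF1 at chr11:47478941-47478952 (minus). TIAL1 has its stretch at chr10:119582558-119582608 (minus), CLINT1 at chr5:157789514-157789567 (minus), SETD5 at chr3:9434277-9434333 (plus) and STK36 at chr2:218696527-218696589 (plus). All 8 are in coding exons and change the message by a multiple of 3 bases. Pooled upstream use was 47.2% in RBM39, 26.4% in EHMT1, 28.8% in HNRNPUL1 event 1, 45.3% in CELF1 event 2, 26.0% in TIAL1, 57.8% in CLINT1, 38.5% in SETD5 and 52.8% in STK36.

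PFN2, which encodes the actin-binding protein profilin 2, has the only pair that passed the test in a knockdown comparison, and its stretch is longer, so only its 2 sites are printed. Lower case marks the 15 transcript bases before the acceptor position and capitals the first 15 bases after it: for the upstream site the lower-case bases are the preceding exon, and for the downstream site they are the end of the stretch.
PFN2 upstream acceptor: gcagagctggtagagTCTTGGTCTTTGTAA
PFN2 downstream acceptor: ccttgtgtactccagCATTGGTTATAGTCA
The PFN2 stretch (ENSG00000070087.15) is 322 nt at chr3:149966265-149966586 on the minus strand. All 8 GENCODE 29 transcripts that start the exon at the upstream acceptor have their stop codon inside the stretch, at chr3:149966489-149966491, and none of the 4 that start it at the downstream acceptor do. The 2 choices therefore encode different C-terminal ends.

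Junction reads totalled 9622841 to 14625040 in the 14 treated libraries and 6499183 to 27937149 over all 19. RBFOX2, the targeted gene, had 126 to 134 CPM (its junction reads scaled to the library's total) in Control, 50.7 to 81.8 with the total knockdown, 77.9 to 90.9 with that of N-long and 114 to 124 with that of N-short. It fell by 0.82 ± 0.08 (log2 fold change and SE) in Total KD, with an adjusted p of 8.6e-09 by edgeR's quasi-likelihood test, and by 0.57 ± 0.07 in N-long KD (edgeR adjusted p = 2.7e-05). In N-short KD its log2 fold change was -0.06 ± 0.07 (edgeR adjusted p = 0.999), a value for the whole gene and not for the targeted isoform. Among the paralogs, RBFOX1 was at 0.552 to 2.23 CPM and RBFOX3 at 16.3 to 25.1 CPM in the treated libraries. Of 10 pluripotency markers, 9 reached 1 CPM in the HUES66 libraries, with summed levels of 3328 to 5140 CPM against 10.5 in A375 total RNA and 50.8 in HEK293, and SOX2, a gene of 1 exon that junction reads cannot count, was at 0. The 10 early differentiation markers summed to 0.495 to 2.72 CPM in HUES66, with SOX17, SOX1 and NEUROG1 at 0. Any marker of 1 exon in this list could not be counted either. In A375 the 10 melanocyte markers summed to 440 CPM, with MLANA and TYR at 0, and the 6 HEK293 markers summed to 108 CPM in HEK293 and 51.1 to 109 in HUES66, so this last list did not set HEK293 apart.

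The acceptors of a pair were typically 40 nt apart (median of the 1804 pairs with a resolved distance), and the longest distance was 5645 nt. By distance, 322 pairs (17.6%) were 4 to 12 nt apart, 409 (22.3%) were 13 to 30 nt, 668 (36.4%) were 31 to 100 nt, 261 (14.2%) were over 100 and up to 300 nt and 144 (7.85%) were over 300 nt. For 30 pairs the tables give only a lower limit of 157 nt. The stretch was coding in 1174 pairs (64%), in a 5' UTR in 211, both coding and UTR in 132, in a noncoding transcript in 90 and in a 3' UTR in 23, and for 204 no annotated transcript had the long exon. The distance was a multiple of 3 in 1092 of 1804 pairs (60.5%). Pairs are not all independent of each other, since 710 lie in genes with more than 1 pair and 254 share an acceptor with another pair.

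Upstream use followed the distance (the plot of upstream use by distance). Over the 1232 pairs with a mean of at least 20 junction reads per treated library, the upstream acceptor took nearly all reads at 4 to 12 nt, with a median use of 98.4% (quartiles 80.1% and 99.7%, 253 pairs). At 13 to 30 nt the order turned: the median was 13.1% (quartiles 0.844% and 92.5%, 291 pairs), and 48.1% of these pairs used the upstream acceptor in under 10% of reads. At 31 to 100 nt the median returned to 90.9% (435 pairs), above 100 and up to 300 nt it was 92.7% (165 pairs) and over 300 nt 96.6% (88 pairs). The pairs at 1 to 3 nt, which are mostly tandem NAGNAG acceptors, had a median of 69.2% over 441 pairs, and 65.1% of them lay between 10% and 90%, against 24.1% of the pairs at both 4 to 12 nt and 13 to 30 nt.

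The median fell between 9 and 18 nt when single distances were read, of which only multiples of 3 were taken from 6 nt on. Median upstream use was 98.3% at 4 nt (44 pairs), 99.1% at 6 nt (70 pairs), 99.4% at 9 nt (39 pairs), 83.4% at 12 nt (41 pairs), 50.8% at 15 nt (36 pairs) and 8.77% at 18 nt (47 pairs). It was 23.5% at 21 nt (44 pairs), 20.3% at 24 nt (42 pairs), 4.74% at 27 nt (26 pairs) and 19.5% at 30 nt (18 pairs), then 72.3% at 33 nt (26 pairs) and 67.6% at 36 nt (26 pairs). By the median, the downstream acceptor therefore led at the distances read from 18 to 30 nt. Single pairs were split, with quartiles of 0.858% and 78.5% at 18 nt, 1.32% and 90.1% at 21 nt and 0.288% and 96.2% at 30 nt. Distances in this range that are not a multiple of 3 were not read singly. These are descriptions of pairs that the authors' splicing program listed as alternative, and a site that is never used would not be listed.

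**Figure D1:**
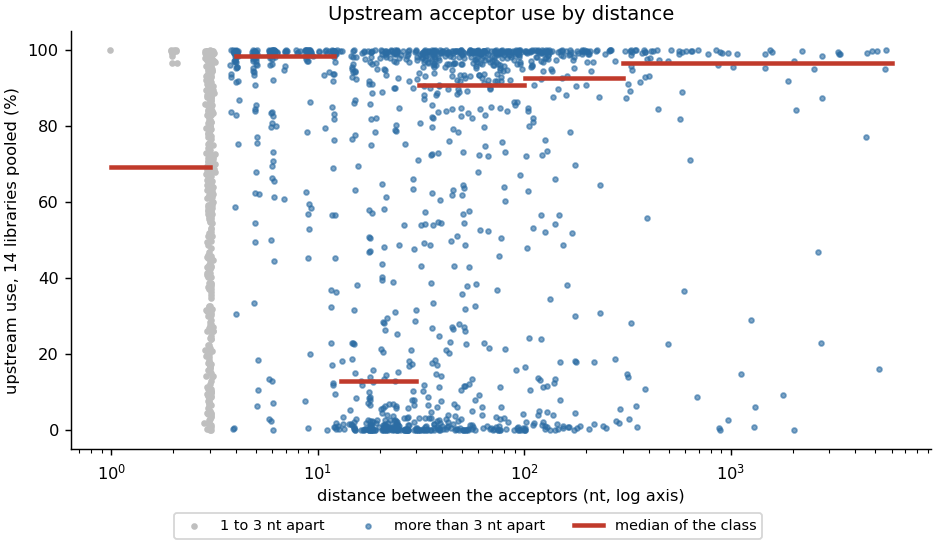
Upstream acceptor use, as a percentage of junction reads pooled over the 14 treated libraries, against the distance between the acceptors in nt on a log axis, 1 point a pair with a small horizontal scatter; grey points are pairs 1 to 3 nt apart and blue points pairs more than 3 nt apart. Red bars mark the median of each distance class, 98.4% at 4 to 12 nt, 13.1% at 13 to 30 nt and 90.9% at 31 to 100 nt.

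Most pairs had a clear main acceptor. Of the 1232, upstream use was under 2% in 207 and over 98% in 432, and 310 (25.2%) lay between 10% and 90%. In coding stretches the distance was a multiple of 3 in 84.2% of the pairs used at 10% to 90% (186 of 221), in 79.5% of those under 2% (66 of 83) and in 65.7% of those over 98% (234 of 356). The stretch, which ends at the downstream acceptor, ended in AG in 1627 of the 1630 pairs whose sequence was found. CAG closed the stretch in 69.1% of the pairs used upstream in under 2% of reads, in 76.4% of those between 10% and 90% and in 67.3% of those over 98%. AAG closed it in 6.62%, 7.31% and 14.8% of the same classes and GAG in 0%, 1.33% and 2.59%, so these acceptor letters, known as weaker than CAG, were most frequent where the downstream site was least used. In stretches of at least 23 nt the median share of pyrimidines in the 20 nt before that AG was 70% in the classes under 90% use and 65% in the classes above.

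GCATG, the letters that RBFOX proteins bind, was searched in the stretches on both strands, with CATGC as its other strand (the 2 overlap in GCATGC). On the gene's own strand it was in 0 of 244 stretches of 4 to 12 nt, 1 of 248 of 13 to 30 nt (0.403%), 13 of 412 of 31 to 100 nt (3.16%), 10.2% of those over 100 and up to 300 nt and 34 of 75 of over 300 nt (45.3%). CATGC was in 0%, 1.21%, 5.10%, 9.55% and 53.3% of the same classes, so the share followed length on either strand. Introns, where RBFOX2 is also known to bind, were not read.

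The most-read pairs of 3 distance classes showed how far a main acceptor could lead. SNHG5 event 2, in a host transcript of small nucleolar RNAs, has acceptors 7 nt apart and had 95.1% to 96.8% upstream use in the 14 treated libraries, on 1224 to 2264 reads. RPL30, a protein of the large ribosomal subunit (57 nt), was at 95.2% pooled and MATR3, a nuclear matrix RNA-binding protein (144 nt), at 12.3%. For the 218 pairs with at least 50 reads in each of the 14 libraries, the median SD over libraries was 3.0 points, against 2.61 points from counting error alone, and the median range was 10 points. Percentages in junction files and inclusion levels in the authors' tables had a Pearson r of 0.955 to 0.967 across the 593 pairs tested below, per library, with a median gap of 1.31 points. Pairs are not independent replicates, and single pairs could differ widely. CIRBP was at 4.81% to 15% by junction reads of 1 donor and had inclusion levels of 0.888 to 1, which did not count that donor. CTNNB1 event 7 was at 32.8% to 48.2%, with inclusion levels of 0.538 to 0.679.

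Knockdown of RBFOX2 moved 1 pair past the threshold. Tested pairs had a mean of at least 20 reads and pooled use of 2% to 98%, which left 593 of the 1834, and p-values were adjusted over 970 pairs with those at 1 to 3 nt included. In Total KD against Control edgeR called 1 of the 593, PFN2, with lower upstream use, and the share called over all 970 pairs was 0.103%. In N-long KD against Control it called 1, again PFN2 and lower (0.103% of all pairs), and in N-long KD against N-short KD also 1, PFN2, lower (0.103%). In N-short KD against Control edgeR called 0 (0% of all pairs), DESeq2 and limma also called 0, and unadjusted p was under 0.05 for 36 pairs by edgeR (5.26% over all 970), 8 by DESeq2 and 40 by limma. By edgeR unadjusted p was under 0.05 for 32 of 593 pairs in Total KD (5.4%, against 5.36% of all pairs), 25 in N-long KD (4.22%, against 4.33%) and 31 between the isoform knockdowns (5.23%, against 4.54%). Total KD and N-long KD were compared with the same Control libraries, so those 2 results are not independent. The contrast of the isoform knockdowns holds no Control library directly. It shares the N-long KD libraries with N-long KD against Control, so these 2 are not independent either. Over the 593 pairs the median absolute difference from Control was 2.74 points for Total KD, 2.04 for N-short and 2.18 for N-long. Between the isoform knockdowns it was 1.84 points. These are means over sets. The SD of 3.0 points given above is for single libraries and 218 deeper pairs, so it is not a like measure.

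PFN2 upstream use was 32.5%, 31.3% and 36.4% in Control (24hr replicate 2, 48hr, 96hr) and 22.4%, 21.4% and 31.3% in Total KD (24hr replicate 1, 48hr, 96hr). In N-long KD it was 27%, 24.4%, 20.4% and 30.2%, and in N-short KD 33.3%, 32.9%, 28.5% and 37.7% (24hr replicates 1 and 2, 48hr, 96hr). Every N-long and Total KD library was below every Control library, the highest Total KD library by less than 0.1 points, while N-short and Control overlapped. N-long and N-short ranges overlapped across time, but N-long was the lower of the 2 in each of the 4 library sets. Behind these values are 441 to 913 reads per library.

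In Total KD, PFN2 upstream use differed from Control by -9.98 points at 48hr and by -5.09 points at 96hr, a mean difference of -7.54 ± 3.46 points (SD, n = 2 sets with both arms). The log2 odds ratio of the fit was -0.63 ± 0.12 (SE, edgeR adjusted p = 2.8e-04, model across all pairs). In N-long KD the differences were -8.07, -10.9 and -6.16 points at 24hr, 48hr and 96hr, with a log2 odds ratio of -0.56 ± 0.11 (edgeR adjusted p = 6.8e-04). Against N-short KD, N-long KD differed by -6.26, -8.51, -8.12 and -7.45 points (mean -7.59 ± 0.99, SD, n = 4 sets; log2 odds ratio -0.53 ± 0.10, edgeR adjusted p = 7.9e-05). N-short KD itself had a log2 odds ratio of -0.02 ± 0.11 (edgeR adjusted p = 0.998) and differences of both signs. The arms with lower use, Total KD and N-long KD, were those with lower RBFOX2 CPM. At 48hr, upstream reads were 173 (Control), 195 (Total), 164 (N-long) and 171 (N-short), while downstream reads were 379, 718, 639 and 428. In this set, without scaling to depth, the arms thus differed mainly in downstream reads. That did not hold in every set. At 96hr the authors' counts of the long and short form were 364 and 306 (Control), 282 and 299 (Total), 381 and 410 (N-long) and 338 and 275 (N-short). In bulk libraries a change in all cells and a change in some cells cannot be told apart.

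The calls of PFN2 against Control were lost without the Control 48hr library, where the adjusted p by edgeR was 0.135 for Total KD and 0.357 for N-long KD. That of N-long KD was also lost without the N-long KD 48hr library (edgeR adjusted p = 0.0719), while that of Total KD passed without the Total KD 48hr library (0.0048). The log2 odds ratio stayed between -0.73 and -0.52 for Total KD and between -0.65 and -0.45 for N-long KD whichever library was left out. DESeq2 and limma gave adjusted p of 0.743 to 0.999 for all 3 called comparisons. N-long KD against N-short KD kept an edgeR adjusted p of 2.87e-05 to 0.0176 whichever library was left out.

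**Figure D2:**
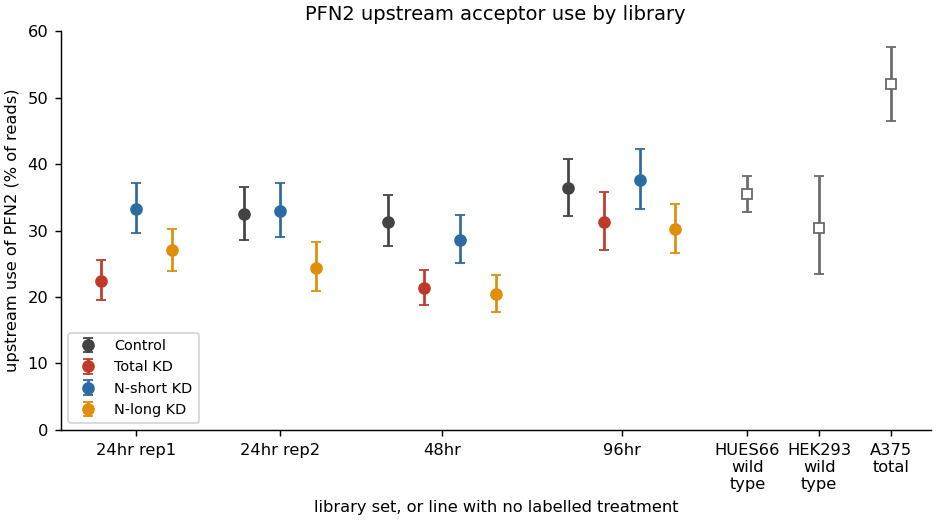
Upstream acceptor use of PFN2 (% of junction reads) in each library, with 95% Wilson intervals that cover counting error only; filled circles are the treated HUES66 libraries by library set, coloured by arm, and open squares are the libraries with no labelled treatment. N-long KD lies below N-short KD in each of the 4 sets, and A375 total RNA (52.1%) lies above all HUES66 libraries.

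The pairs next to PFN2 in rank did not pass. CTNNB1 event 7, 159 nt in the 3' UTR of beta-catenin, had upstream use of 36.4%, 41.4% and 35.6% in Control and 35.4%, 48.2% and 47.8% in Total KD, higher by 6.81 points at 48hr and by 12.1 at 96hr while the 24hr libraries of these arms come from different sets (log2 odds ratio 0.36 ± 0.12, edgeR adjusted p = 0.39). It passed without the Total KD 24hr library (edgeR adjusted p = 0.019) and on the raw counts of the authors' tables (0.041), and in no other alternative. With 1 library left out the adjusted p by edgeR reached 0.995 (without Total KD 48hr), and the log2 odds ratio was lowest without Total KD 96hr (0.21) and Control 96hr (0.24). E2F3, a transcription factor of the cell cycle (18 nt), was at 100%, 93.8% and 96.2% in Control, at 86.4%, 92.9% and 83.3% in Total KD and at 90.5%, 89.5%, 86.5% and 90.4% in N-long KD. All its Total KD and N-long KD values lay below its Control values, yet adjusted p by edgeR was 0.39 and 0.737. It too was picked by low p from these libraries. NUSAP1 event 2, in a spindle protein, had a Total KD difference of 6.51 ± 6.46 points over 2 sets (SD, edgeR adjusted p = 0.542).

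In N-short KD the lowest p belonged to SMC4, a condensin subunit, which used the upstream acceptor in 94.3%, 96.7% and 94.2% of Control reads and 99.1%, 99%, 99% and 99.2% of N-short KD reads (edgeR adjusted p = 0.898). PHF1, a Polycomb-associated protein (11 nt), had the widest gap among these, -20.9, -22.6 and -24.6 points in the 3 sets, on 12 to 31 reads per library (edgeR adjusted p = 0.898). CIRBP, a cold-inducible RNA-binding protein, was at 13.8%, 12.2% and 13.5% in Control and at 4.81%, 5.75%, 7.69% and 7.22% in N-short KD (edgeR adjusted p = 0.898). These CIRBP values hold only for the most-read of 6 shared donors. The authors' inclusion levels for the same pair were 0.888 to 1 where given, on 0 or 1 short-form reads per library. This donor had a mean of 104 reads per treated library, mostly downstream, so the 2 sources did not count the same donor. In each of the 3 pairs the junction percentages of Control and N-short KD did not overlap, but the test over all pairs did not call them. They were picked by lowest p from the same libraries, so the gap between arms is no separate support. How many of all tested pairs had such a gap is not given here.

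Between N-long and N-short KD, PMEL came closest. PMEL encodes a melanosome matrix protein, and use of its upstream acceptor (21 nt) was 12.5%, 4.76%, 10.9% and 10.7% with N-short knockdown and 0%, 2.78%, 0% and 0% with N-long knockdown, where 0 of 51, 64 and 36 reads allow up to 5.88%, 4.69% and 8.33% (log2 odds ratio -3.26 ± 0.85, edgeR adjusted p = 0.063). The 2 arms did not overlap, but the pair was picked by its low p from the same libraries. It passed when the N-short KD 24hr replicate 2 library (edgeR adjusted p = 0.031) or the N-long KD 24hr replicate 2 library (0.004; log2 odds ratio -5.60) was left out. Without other single libraries the adjusted p by edgeR was 0.057 to 0.993, with 0.993 without N-short KD 24hr replicate 1, and on the raw counts of the authors' tables the log2 odds ratio was -0.73 (edgeR adjusted p = 0.996). PEX5, the import receptor of peroxisomes (24 nt), differed by 6.05 ± 3.85 points and NCOR1, a nuclear receptor corepressor (48 nt), by 7.15 ± 3.98 points (SD, n = 4 sets), both with an edgeR adjusted p of 0.646.

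**Figure D3:**
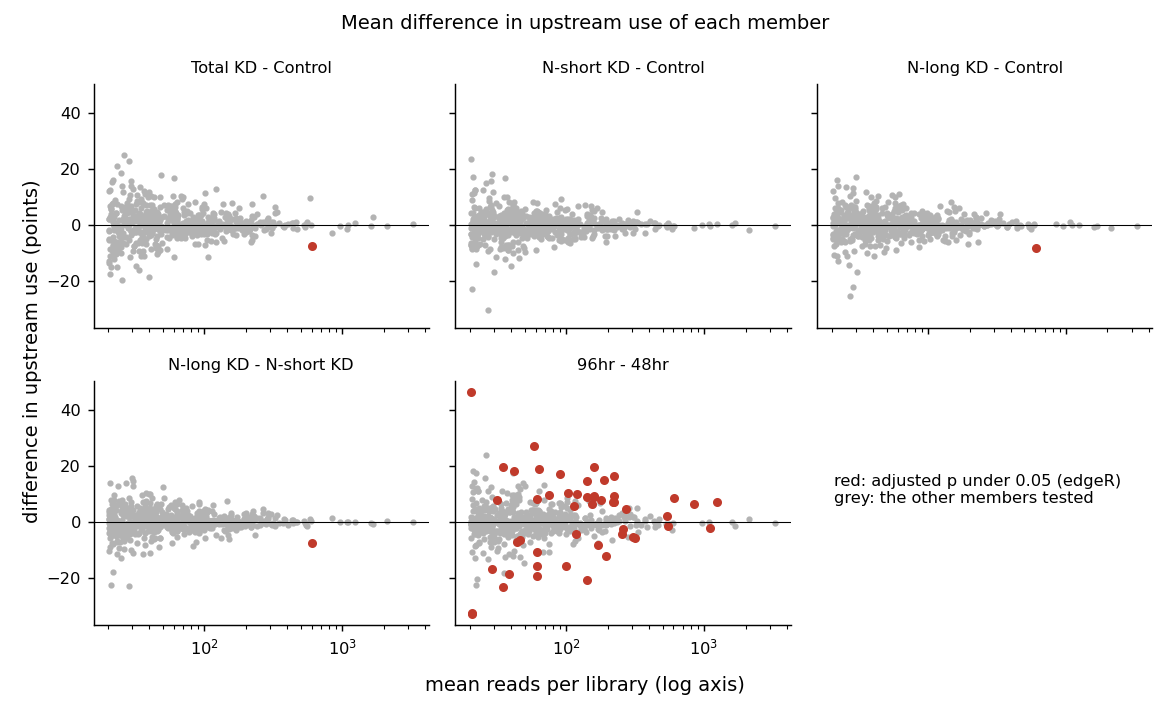
Mean difference in upstream use (percentage points) of each tested pair against its mean reads per library on a log axis, 1 panel a comparison; red points passed an adjusted p of 0.05 in edgeR and grey points did not. The 4 knockdown panels hold 1, 0, 1 and 1 red points, each of them PFN2, and the panel of 96hr against 48hr libraries holds 50.

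Gene lists that bear on RBFOX2 and on acceptor choice held few tested pairs, and no list had a call in any knockdown comparison by edgeR. Of 18 genes known to respond to RBFOX proteins, 7 had pairs and 4 pairs were tested: ENAH, an actin regulator (684 nt, 8.72% upstream), RBFOX2 event 1 (12 nt, 32.5%), PICALM, a clathrin assembly protein (21 nt, 93.6%), and MEF2D, a transcription factor (12 nt, 85%). Their median difference from Control was -0.99 points for Total KD, 0.81 for N-short and -1.24 for N-long, beside 0.16, -0.12 and 0.08 over all 593 pairs. PICALM had unadjusted p of 0.024 in N-short KD and 0.010 between the isoform knockdowns (edgeR adjusted p = 0.898 and 0.725). The RBFOX2 pair lies in the targeted gene itself, at chr22:35760021-35760032, and was at 29.3% to 36.3% (Control), 30.4% to 40.3% (Total), 26.4% to 37.5% (N-short) and 21% to 35.2% (N-long), ranges that overlap.

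Of 38 genes for factors that recognise or proofread the 3' splice site, 3 had a tested pair: RBM39, a U2AF-related factor (18 nt, 47.2%), SF1, the branch point binding protein (637 nt, 71.1%), and ZRSR2, which reads the 3' splice site of minor introns (11 nt, 94.3%). Of 14 SR protein genes 1 was tested, SRSF11 (21 nt, 2.63%), and of 19 hnRNP genes 2, HNRNPR (9 nt, 7.76%) and HNRNPUL1 event 1 (30 nt, 28.8%). For these 3 lists the median difference from Control lay between -1.56 and 0.90 points. Summed over their junction reads, 37 of the 38 factor genes were tested for level and edgeR called 0 in each comparison, with 3, 2, 1 and 0 at an unadjusted p under 0.05 for Total, N-short, N-long and the contrast of isoform knockdowns; 2.28%, 0.00747%, 0.0224% and 0.0149% of 13393 genes were called in the same comparisons.

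More pairs passed the test between the 96hr and 48hr sets than in any knockdown comparison. Over all 593 pairs the median absolute difference between sets, 2.38 to 2.93 points, was close to that of the knockdown comparisons. Contrasts of sets were added within the same model after the values had been seen. Each compares 1 set with 1 set, so its p-values measure the spread of libraries within sets and hold no spread between preparations. Between the 96hr and 48hr sets, each with all 4 arms, edgeR called 50 of the 593 pairs (8.43%), 29 with higher and 21 with lower upstream use at 96hr, and the share called over all 970 pairs was 7.53%. The difference had the same sign in all 4 arms in 48 of the 50, and its median size was 9.32 points (1.54 to 46.1). The calls were made from these same libraries. Sign, size and lack of overlap in called pairs therefore describe them and are no separate support. Pairs at 1 to 3 nt were called in 23 of 377 cases (6.10%). Between 48hr and 24hr replicate 2, edgeR called 6 pairs, 2 higher and 4 lower at 48hr (0.722% of all pairs), and between 96hr and 24hr replicate 2 it called 0 (0% of all pairs, 59 members at an unadjusted p under 0.05; limma also 0, with 50). Without the Control 24hr replicate 2, the N-long KD 24hr replicate 2 or the Control 48hr library, edgeR called 0 pairs between 48hr and 24hr replicate 2, and without the Control 96hr library it called 30 between 96hr and 48hr.

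TIAL1, CLINT1 and SETD5, printed above, had means of 223, 143 and 159 reads per treated library. TIAL1, an RNA-binding protein of U-rich sequences that itself acts in splicing, used its upstream acceptor in 15.6%, 22.4%, 18% and 15% of reads at 48hr (Control, Total KD, N-short KD, N-long KD) and in 29.9%, 37.6%, 34.9% and 33.8% at 96hr. Every 96hr library lay above every 48hr library, and the 24hr libraries, at 19.7% to 35.1%, overlapped both. The difference was 16.3 ± 2.00 points (SD, n = 4 arms, edgeR adjusted p = 1.2e-11).

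CLINT1, a clathrin-interacting protein, moved the other way. Its upstream use was 64.1%, 72.5%, 66.7% and 70.6% at 48hr and 44.4%, 44.7%, 53.5% and 49.1% at 96hr, a difference of -20.5 ± 6.03 points (SD, n = 4 arms). SETD5, a SET-domain protein of chromatin, was at 29.1%, 33.5%, 26.3% and 20.6% at 48hr and at 51.4%, 43.6%, 45.2% and 47.4% at 96hr, 19.5 ± 7.09 points higher. Neither overlapped between the 2 sets, and both passed in edgeR whichever library was left out.

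STK36, a kinase related to Fused of Hedgehog signalling, had the widest difference, 46.1 ± 9.14 points, from 11.1% to 29.2% at 48hr to 64% to 75% at 96hr, on only 11 to 34 reads per library. Its Control 24hr replicate 2 library, at 18.2%, lay with the 48hr libraries and the other 24hr libraries lay at 55.9% to 76.5%. SUGP2, a G-patch protein with a stretch of 2591 nt in its 3' UTR, was at 25% to 34.3% at 48hr and 47.7% to 65.9% at 96hr. CUX1 event 2, in a homeobox transcription factor (306 nt), fell from 92.1% to 100% at 48hr to 63.6% to 84% at 96hr. These 3 pairs also passed in edgeR whichever library was left out.

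Of the other pairs with the widest differences, GTF2IRD1 event 2 (a transcription factor; 10% to 19.5% at 48hr, 26.9% to 40.9% at 96hr) and APTX event 1 (a DNA repair enzyme; 39.1% to 42.6%, then 50% to 66.1%) rose. FAM111A event 4 (a protease of replication; 66.7% to 77.8%, then 35% to 44.4%), PSMA3-AS1 (65.4% to 80%, then 29.4% to 50%) and CPSF4 event 1 (a subunit of the mRNA 3' end cleavage complex; 57.8% to 64.3%, then 32.3% to 46.6%) fell. None of the 5 overlapped between the sets. Each of these calls was lost by edgeR when some single library was left out: adjusted p reached 0.118 for FAM111A event 4, 0.128 for PSMA3-AS1, 0.0989 for GTF2IRD1 event 2, 0.0717 for CPSF4 event 1 (without Control 96hr) and 0.0557 for APTX event 1. PSMA3-AS1 is antisense to PSMA3, and whether counting used strand is not given in the sources used here.

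Pairs that belong to the lists, to the knockdown result or to the widest ranges over cell lines (TASOR) were among the 50. ENAH was at 4.62% to 6.69% at 48hr and 8.23% to 12.3% at 96hr (edgeR adjusted p = 0.0038), RBM39 fell from 50.8% to 56.5% at 48hr to 41.3% to 50% at 96hr (edgeR adjusted p = 0.048), and TASOR, a subunit of the HUSH silencing complex, rose from 41% to 50.5% to 60.9% to 66.0% (edgeR adjusted p = 0.0018). PFN2 itself was 8.47 ± 2.32 points higher at 96hr (SD, n = 4 arms, edgeR adjusted p = 4.9e-07), a difference as large as that of N-long KD against Control, and arms were compared within sets.

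By distance, calls between 96hr and 48hr made up 11 of 105 tested pairs at 4 to 12 nt, 6 of 140 at 13 to 30 nt, 17 of 224 at 31 to 100 nt, 9 of 80 over 100 and up to 300 nt and 7 of 44 over 300 nt. Of the coding pairs with a distance that is a multiple of 3, 31 of 332 were called (9.34%), a share near the 8.43% over all tested pairs of more than 3 nt.

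Other measures moved with the sets. Between 96hr and 48hr edgeR called 59.6% of 13393 genes (35.3% between 48hr and 24hr replicate 2, and 37.3% between 96hr and 24hr replicate 2), and 25 of the 37 tested 3' splice site factor genes were higher at 96hr and 2 were lower, with a list median of 0.22 (log2 fold change) beside -0.01 over all genes. Of the same 37, 2 were higher and 21 lower at 48hr than at 24hr replicate 2, and 11 were higher and 8 lower at 96hr than at 24hr replicate 2. U2AF2, the pyrimidine-tract subunit of U2AF, was at 166 to 186 CPM in the 48hr libraries and 297 to 314 CPM at 96hr (log2 fold change 0.78 ± 0.04, SE). SRSF2 was higher by 0.61, SRSF1 by 0.56, RBM17 by 0.53, SF3A1 by 0.51 and SF1 by 0.28, while HNRNPA1 (-0.07) and NKAP (-0.25) were lower. RBFOX2 had a log2 fold change of -0.04 (edgeR adjusted p = 0.569). Pluripotency markers summed to 3776 to 3949 CPM at 48hr and 4302 to 5140 at 96hr, the HEK293 list to 91.9 to 109 and 51.1 to 55.0, the melanocyte list to 72.8 to 77.0 and 40.6 to 48.9, and junction reads were 12208870 to 14403078 and 11009271 to 13320107. Their part in the differences of acceptor use was not tested.

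**Figure D4:**
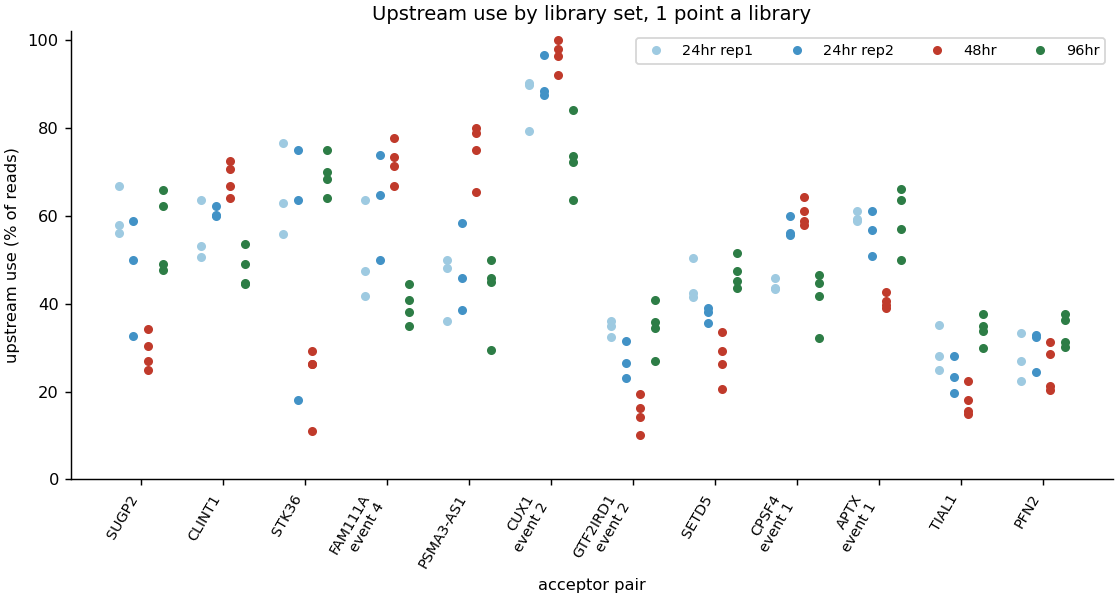
Upstream use (% of junction reads) of 12 pairs in each treated library, 1 point a library, coloured by library set. In all but PFN2 the 48hr points (red) and the 96hr points (green) do not overlap, as in TIAL1 (15% to 22.4% against 29.9% to 37.6%).

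Across cell lines, with 1 library each and no test, most pairs had similar use. Of 479 pairs with at least 50 reads in A375 total, HEK293 and wild-type HUES66 libraries, 49 (10.2%) had a highest and a lowest line whose 95% Wilson intervals did not overlap, and by the same rule 8.84% of all 622 pairs did, including those at 1 to 3 nt. These intervals cover counting error only, and reads were counted without molecular identifiers. The median range over the lines was 1.29 points, 48 pairs ranged over at least 10 points and 11 over at least 20. HEK293 was highest in 29 of the 49 and HUES66 lowest in 25.

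SNHG1 event 4, in a host transcript of small nucleolar RNAs, had the widest range, at 72.9% in A375, 50% in HEK293 and 96.3% in HUES66, where the 15 libraries held 88.1% to 96.9%. Its range shrank to 13.5 points when reads from all donors into each acceptor were counted. EHMT1, the histone methyltransferase GLP, was at 15.8% in A375, 56.8% in HEK293 and 25.4% in HUES66, and the 15 HUES66 libraries held 22.1% to 34.1%. CELF1 event 2, in an RNA-binding splicing regulator, was at 73.3%, 49.1% and 41.1% in the same order, and CLINT1 at 33%, 48.2% and 57.8%. TIAL1 was at 50% in HEK293, 25.9% in A375 and 25.25% in HUES66, and PFN2 was at 52.1% in A375, 30.3% in HEK293 and 35.5% in HUES66.

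The HUES66 libraries themselves set a scale for these values. For EHMT1 and CELF1 event 2 (34.6% to 53.3% over 15 HUES66 libraries) the outlying line, HEK293 or A375, lay outside the whole HUES66 range. SUGP2 was at 96.3% in A375, 74.7% in HEK293 and 59.5% in wild-type HUES66, and its HUES66 libraries spanned 25% to 66.7%. TASOR, at 72.4%, 83.1% and 57.5%, had a HUES66 span of 41% to 66.0%. In both, A375 and HEK293 lay above the whole HUES66 span. CIRBP was at 30.6% in HEK293, above its HUES66 range of 4.81% to 15%, and SNHG29 event 3 was at 70.1% in HEK293, above 55.1% to 63.5%, with A375 below it at 48.2%. The CIRBP values are for 1 of 6 shared donors. The authors' inclusion levels in treated libraries were far higher (0.888 to 1) but did not count that donor.

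Nuclear and cytoplasmic RNA of A375 gave almost the same use. Of 399 pairs with at least 50 reads in both fractions, 11 (2.76%) had intervals apart, 5 higher in the nucleus and 6 in the cytoplasm, beside 2.09% of all 527 pairs. With all reads into each acceptor counted, 13 of 470 pairs had intervals apart, 8 higher in the nucleus and 5 in the cytoplasm, so neither fraction held the larger number under both counts. The median absolute difference was 0.53 points and 9 pairs differed by at least 10 points. SNHG1 event 4 stood apart: its upstream acceptor took 61 of 75 nuclear reads (81.3%, 95% Wilson interval 71.1% to 88.5%) and 55 of 166 cytoplasmic reads (33.1%, 26.4% to 40.6%), with 72.9% in total RNA. Its stretch of 387 nt contains the gene of the small nucleolar RNA SNORD28, and the difference was 18.6 points with all reads into each acceptor. SNHG1 event 2 was the other SNHG1 pair higher in the nucleus, at 93.3% against 80.3%.

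EIF3B, a subunit of translation initiation factor 3, had the widest difference the other way, with 41.7% of 72 nuclear reads and 60.6% of 421 cytoplasmic reads for an upstream acceptor in its 3' UTR (75 nt). LY6E event 2, in a GPI-anchored surface protein, was at 100% in the nucleus (263 reads) and 91.6% in the cytoplasm (644 reads), and CNIH4, an ER export protein, at 99.7% and 96.7%. ITGB1 event 3, in integrin beta-1, was at 0.342% and 4.95%, ATP5MC1, a subunit of the mitochondrial ATP synthase, at 96.1% and 99.5%, and UBE2T, a ubiquitin-conjugating enzyme of DNA repair, at 97.2% and 100%. In these 5 pairs the minor acceptor took under 10% of reads in both fractions. GAS5, another small nucleolar RNA host, had pairs on both sides, event 1 (0.855% and 0.210%) and event 13 (98.9% and 99.8%), but the direction of event 13 turned when all reads into each acceptor were counted (0.771 points higher in the nucleus). Coding pairs whose distance is not a multiple of 3, for which the 2 choices read different frames, had a median absolute difference between fractions of 0.398 points (76 pairs), beside 0.697 points for coding pairs that keep the frame (209 pairs). The 2 groups were not matched for use. In the treated libraries 65.7% of coding pairs over 98% use kept the frame, against 84.2% at 10% to 90%.

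**Figure D5:**
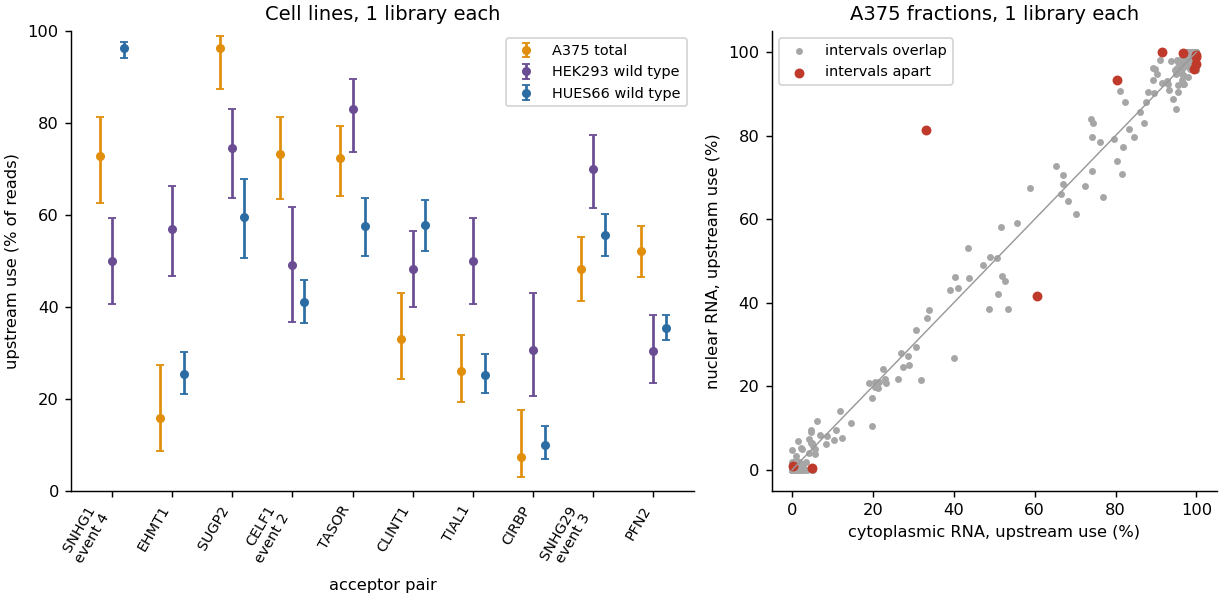
Left, upstream use (% of junction reads, with 95% Wilson intervals) of the 10 pairs with the widest range over A375 total, HEK293 and HUES66 wild-type libraries; right, upstream use of each pair in nuclear against cytoplasmic A375 RNA (%), with red points where the intervals do not overlap and a line of equal use. SNHG1 event 4 lies farthest from the line, at 81.3% nuclear and 33.1% cytoplasmic.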

How the data were processed

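Total RNA was ribosomal-RNA-depleted (Kapa RNA HyperPrep with RiboErase) and sequenced on a NextSeq, per the labels' protocols; STAR 2.7.1, SAMtools 1.9 and hg38 are named in the submitters' processing notes. The authors deposited rMATS splicing tables with whole-number counts per library and inclusion levels, a fraction from 0 to 1, and junction files with raw counts of spliced reads (how multiply mapped reads were treated is not given in the sources used here). Of the tables' per-library columns 9 could not be tied to a labelled sample and were not used.

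Distances came from the deposited effective lengths, which stop at 157 nt, and beyond that from GENCODE 29 exons (208 of 276 with 1 candidate acceptor, 38 with several, of which the most-read was taken, and 30 unresolved). Upstream use is upstream reads over upstream plus downstream reads, from the shared donor with most reads. edgeR 4.0.16 (R 4.3.3) fitted both acceptors of each library with library effects, acceptor by library set (the block) and acceptor by knockdown, over 970 pairs; adjusted p-values are Benjamini-Hochberg with a threshold of 0.05. limma 3.58.1 (pseudocount 0.5 reads) and DESeq2 1.42.0 were alternatives, and Python 3.11.15 with scipy 1.17.1 and pandas 2.3.3 did the rest. The SE is the log2 odds ratio over the root of F. Gene levels are summed junction reads with TMM scaling. The library sets come from time point and replicate number in the labels: same-set libraries deviated together (median correlation 0.17 over 18 library pairs of 371 acceptor pairs, -0.06 over 55 of different sets).

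In simulated data of 970 pairs, 200 were changed by a log2 odds of 1 or 2. At 1, edgeR recovered 34.5%, 36.5% and 38.5% in Total, N-short and N-long KD, and 55% between 96hr and 48hr. At 2 it recovered 81%, 83.5%, 81% and 88.5%. In the knockdown comparisons at 1, limma recovered 8.5% to 22.5% and DESeq2 13% to 24%. In each of these runs edgeR also called 1 to 8 unchanged pairs, and it called 0 where no pair was changed. Members, lists and tests were chosen with earlier results of these data known. Pairs were named by rule: up to 10 past the threshold per comparison with the widest difference, otherwise the 5 with lowest p; the most-read pair per distance class (1 of them is not reported here); up to 4 most-read tested pairs per list; the 10 widest ranges over lines; and up to 5 each way between fractions. Lines and fractions have 1 library each and needed 50 reads; intervals are 95% Wilson.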

Additional observations from a re-analysis of the deposited data

Results flagged for a closer look

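Of 92 groups of 4 libraries checked (46 pairs, N-short KD and N-long KD), 5 held 1 library far from the other 3; chance alone marks about 1 in 20 groups, and no cause was tested. CIRBP upstream use was 15% in N-long KD at 96hr (100 reads), and 7.87% to 8.53% in the other 3 N-long libraries. RBFOX2 event 1 was at 21% in N-long KD at 48hr (100 reads), below the 33.7% to 35.2% of the others. GTF2IRD1 event 2 was at 14.3% in N-short KD at 48hr (42 reads), against 31.6% to 34.5%, and all 4 arms were low at 48hr in that pair. PICALM was at 92.6% in N-short KD at 24hr replicate 2 (27 reads), with the others at 100%. PMEL was at 2.78% in N-long KD at 24hr replicate 2 (72 reads), with the others at 0%. In PICALM and PMEL the other 3 libraries were tied at an end of the scale, so any different value would be marked. The rate of 1 in 20 does not apply to such groups.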

How the results depend on the processing

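The 3 calls of PFN2 (total knockdown, N-long, and N-long against N-short) kept their side of the threshold in edgeR without the replicate block (time point alone: adjusted p = 8.8e-04, 0.0035 and 7.9e-04, with 1, 1 and 1 pairs called and 0 in N-short KD), with DESeq2 size factors, other read minimums, reads from all donors, the authors' raw counts, or the wild-type HUES66 library as the missing control. DESeq2's Wald test and limma called 0 pairs in each of the 3. The authors' counts gave 2 in Total KD, and no filter gave 2 in N-long KD and 3 in N-long against N-short KD (EEF1A1 event 1 among them, beside PFN2). Leaving out 1 library gave 0 to 2, 0 to 1 and 1 to 2 pairs; Total KD had 0 without Control 48hr and 2 without Total KD 24hr, and N-long KD had 0 without Control 48hr or N-long KD 48hr. Between sets, limma called 28 pairs for 96hr against 48hr and 1 for 48hr against 24hr replicate 2; leaving out 1 library gave 30 to 52 and 0 to 8; 96hr against 24hr replicate 2 had 3 with the authors' counts and 1 with all reads. Of the 50 edgeR calls, 26 were among limma's 28. Lines had 77 pairs apart at 20 reads. Signs turned for knockdown values near 0 that passed no test, and for GAS5 event 13. The log2 odds ratio of PFN2 in N-short KD was 0.0187 with the authors' counts and -0.112 to 0.0799 with 1 library left out. That of CTNNB1 event 7 in N-short KD was 0.0177 with the wild-type HUES66 library as control, 0.0575 with the authors' counts and -0.117 to 0.0793 with 1 library left out; in N-long KD the last range was -0.0653 to 0.131 and between the isoform knockdowns -0.00796 to 0.163. GAS5 event 13, higher in the cytoplasm with intervals apart, was 0.771 points higher in the nucleus with all reads. Depth limits pairs near 20 reads, where 1 read is 5 points.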

Other observations

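APTX event 1, a pair 115 nt apart in a DNA repair gene, had 0 upstream reads of 35 in cytoplasmic A375 RNA, which allows up to 8.57%, and 0 of 6 and 0 of 5 in total and nuclear A375 RNA. It was at 67.3% in HEK293, 62.8% in wild-type HUES66 and 39.1% to 66.1% in the treated HUES66 libraries, and was chosen after its values were seen. MATR3, outside the 10 widest ranges over lines, was at 4.04% in A375 total RNA (95% Wilson interval 2.5% to 6.46%), 9.86% in HEK293 and 11.4% in wild-type HUES66 (10.2% to 12.7%), with 10.3% to 14.8% in the treated libraries. HNRNPR was at 13.6% in HEK293 (10.5% to 17.4%) and 8.4% in wild-type HUES66 (6.87% to 10.2%), with 5.57% to 8.74% in the treated libraries. HNRNPUL1 event 1 was at 12.6% in HEK293 (8.11% to 19%) and 23.9% in wild-type HUES66 (20.3% to 27.9%), with 22.3% to 37.5% in the treated libraries. Each of these lines is 1 library, and the intervals cover counting error only.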
